A study of Rattus norvegicus with 15 samples.

Results

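The ATP-binding cassette (ABC) efflux pumps of the liver were followed in rats given fipronil, through the 10 genes Abcb1a, Abcb1b, Abcb4, Abcb11, Abcc1, Abcc2, Abcc3, Abcc4, Abcc6 and Abcg2. Every non-control probe that the array files name for one of them, by its current symbol or an older alias, was taken, which gave 13 of 41012 probes, out of 16147 genes that the probes of the array name. Of these, 11 probes of 9 genes were bright enough to be tested. Messenger RNA was measured on one-colour Agilent arrays, 1 array per rat. The treated group was 8 female Wistar Crl:WI rats, 2 to 3 months old, that received fipronil, a phenylpyrazole insecticide, orally for 14 days at a daily dose of 3 mg/kg. The comparison group was 7 rats of the same strain, sex and age that received only the vehicle, 0.5% methylcellulose with 0.01% Tween 80 in water, on the same schedule. RNA came from pieces of the large liver lobe, so all cell types of the tissue contributed, and fewer cells of a type cannot be told apart from less RNA per cell.

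Hepatocytes clear drugs and metabolic waste by taking them up from blood, oxidising and conjugating them, and pumping the products out at the expense of ATP. Pumps of the canalicular membrane, Abcb1a, Abcb1b, Abcb4, Abcb11, Abcc2 and Abcg2, empty into bile, whereas Abcc3, Abcc4 and Abcc6 sit in the membrane that faces the blood. Several of these genes are known targets of the xenobiotic receptors CAR and PXR, which respond to many pesticides in rodent liver.

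Abcb1b and Abcb1a encode the rodent P-glycoproteins, which expel hydrophobic drugs, and the 2 genes lie next to each other on chromosome 4. Their promoters are printed because Abcb1b passed the test described below and Abcb1a, its neighbour, was too dim for it. Whether the 2 genes changed differently was not tested. The promoter of Abcc2 is printed because its probe had the next smallest p among the genes. The sequences are from RefSeq (GRCr8), 250 bases before the start of the gene to 50 bases after it, on the strand of the gene, at chr4:26279980-26280279 (minus strand) for Abcb1b, chr4:26397599-26397898 (minus strand) for Abcb1a and chr1:252613625-252613924 (plus strand) for Abcc2. Capitals mark matches on either strand. The CCAAT box was searched by those letters and the GC box as GGGCGG. The E-box was searched as CACGTG. Nuclear receptor half-sites were searched as AGGTCA. Their variant form was searched as AGTTCA. The core of the antioxidant response element was searched as TGACNNNGC.
Abcb1b: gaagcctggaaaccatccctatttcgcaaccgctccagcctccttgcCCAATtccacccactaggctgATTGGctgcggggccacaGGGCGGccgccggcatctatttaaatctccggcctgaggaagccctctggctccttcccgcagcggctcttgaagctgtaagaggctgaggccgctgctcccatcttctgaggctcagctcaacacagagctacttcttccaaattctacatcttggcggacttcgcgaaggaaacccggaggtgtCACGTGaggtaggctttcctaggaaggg
Abcb1a: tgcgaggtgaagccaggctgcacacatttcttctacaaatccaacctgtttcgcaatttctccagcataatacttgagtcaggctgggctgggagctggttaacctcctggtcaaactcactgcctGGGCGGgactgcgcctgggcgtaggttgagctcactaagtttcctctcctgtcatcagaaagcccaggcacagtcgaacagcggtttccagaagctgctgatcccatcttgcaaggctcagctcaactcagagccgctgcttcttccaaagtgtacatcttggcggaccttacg
Abcc2: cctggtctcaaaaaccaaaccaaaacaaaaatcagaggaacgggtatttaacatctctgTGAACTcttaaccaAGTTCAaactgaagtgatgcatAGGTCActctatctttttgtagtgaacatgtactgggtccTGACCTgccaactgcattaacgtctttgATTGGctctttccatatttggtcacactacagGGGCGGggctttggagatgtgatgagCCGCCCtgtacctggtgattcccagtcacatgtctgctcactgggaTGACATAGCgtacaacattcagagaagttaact
The promoters of Abcb1b and Abcb1a were identical at 171 of 300 bases after end-to-end alignment, or 57%. The 27 other pairs of member promoters gave 46.0 to 58.3%. This share covers the whole window and does not measure shorter shared stretches. Both printed windows hold the letters aggctcagctcaac and tacatcttggcgga, at different distances from the start. Such stretches were not scored against the other pairs. The window of Abcb1b held a CCAAT box on each strand, 1 GC box and 1 E-box, while that of Abcb1a held 1 GC box and none of the other letters searched. The window of Abcc2 held a CCAAT box, GC boxes and both half-sites on each strand, and the antioxidant response element core. The GC box was present in the windows of all 8 members that matched the RefSeq table and in 33.1% of 33469 promoters. The shares of all promoters were 37.5% for the CCAAT box, 6.42% for the E-box, 16.2% and 14.5% for the half-sites in the order given, and 12.1% for the antioxidant response element core. No matches overlapped in the windows printed. A match describes letters in a window and is not a binding site.

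Signal is the log2 processed intensity of a probe minus the 75th percentile of its array, so a difference of 1 is a doubling. Each probe was compared between groups with limma, and a probe was called at a Benjamini-Hochberg adjusted p under 0.05 over the 23258 probes tested. Among the 11 efflux pump probes, 1 was called higher with fipronil and none lower, against 0.533% of all probes tested called higher and 0.288% called lower (0.821% in either direction). At an unadjusted p under 0.05, 4 of the 11 were higher and 2 lower, against 17.2% of all probes in either direction. Both probes of Abcc3 are among the 4, so these counts are not of independent genes. Log2 differences of the 11 probes had a median of 0.06, beside -0.02 over all probes. Arrays of fipronil rats were brighter, with a 75th percentile of intensity of 210 ± 25.8 (SD, n = 8) against 172 ± 33.3 in vehicle rats (SD, n = 7; exact permutation p = 0.0196, adjusted p = 0.0457 over 4 measures). The arrays shared 4 slides, each with rats of both groups, and slides 1 to 4 had mean percentiles of 238, 201, 189 and 211 in fipronil rats against 186, 196, 159 and 139 in vehicle rats. The scaling removes this difference only as a constant on the log2 scale.

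**Figure D1:**
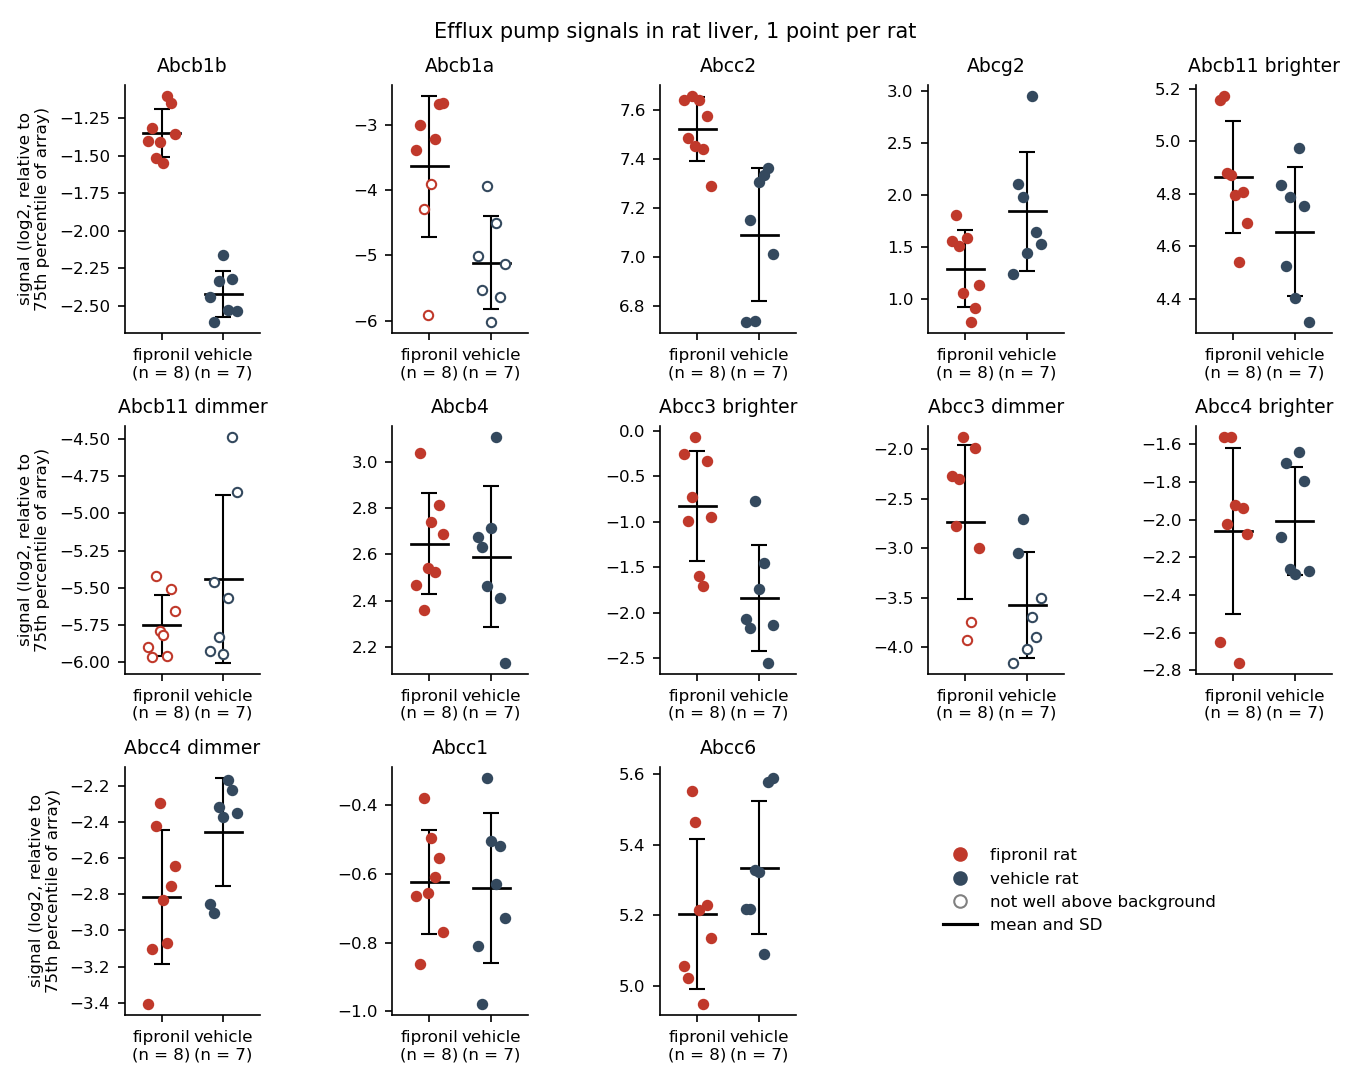
Signal (log2, relative to the 75th percentile of each array) of the 13 efflux pump probes, fipronil rats at the left of each panel and vehicle rats at the right, with 1 point per rat and bars for the mean and SD. Open points are not well above background. Abcb1b is the only tested probe whose groups do not overlap.

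Abcb1b was the only efflux pump called higher with fipronil. Its probe (listed as Abcb1, accession NM_012623, rn4 chromosome 4, 21899463 to 21899522) read -1.55 at the lowest, -1.38 at the median and -1.10 at the highest in the 8 fipronil rats. In the 7 vehicle rats the lowest, median and highest signals were -2.60, -2.44 and -2.16. Every fipronil rat lay above every vehicle rat, a separation that 0.598% of all probes tested showed in either direction. The means were -1.35 ± 0.16 with fipronil (SD, n = 8) and -2.42 ± 0.15 with vehicle (SD, n = 7), a log2 difference of 1.07 ± 0.09 (SE) or 2.10-fold (95% interval 1.84 to 2.39), with a limma adjusted p of 3.42e-06. It ranked 14th of all probes by p. Within slides the log2 difference was 1.16, 0.78, 1.20 and 1.17 on slides 1 to 4, so it was higher on all 4. With array brightness as a covariate the log2 difference was 0.99 (adjusted p = 0.000169). Background correction by normexp with quantile normalization gave 0.44 and the values tabulated by the authors gave 0.56, both past the test and both more than 1.5 times smaller than 1.07.

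Endothelial cells also carry P-glycoprotein, and markers of that cell type were read beside Abcb1b. None of 7 measured endothelial markers passed the limma test (1 without slide 2), and the median log2 difference was 0.29. At an unadjusted p under 0.05, 3 were higher and 0 lower, against 17.2% of all probes in either direction. Differences ran from -0.24 for Vwf to 0.52 for Lyve1, with Cdh5 at -0.08 (brightest probe). Their summed level ranged from 70.9 to 132 in fipronil rats and from 59.3 to 80.7 in vehicle rats, in multiples of the 75th percentile. Most of this sum is Kdr, whose mean signal in fipronil rats was 6.28, against 2.23 for Lyve1, the next brightest. The sum is thus not a measure of the 7 markers together. All 10 hepatocyte markers were measured and none passed. At an unadjusted p under 0.05, 5 were lower and 0 higher, beside the same 17.2% of all probes, and all 5 were read from saturated probes. In all, 8 of the 10 were saturated on at least 9 of the 15 arrays, so their differences and their sum are not given. The remaining 2, Hnf4a and Cps1, picked out after their values were seen, differed by 0.03 and -0.02. These 2 genes do not measure the hepatocyte share of the tissue. The part of these markers in the Abcb1b difference was not tested.

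Abcb1a, the other P-glycoprotein gene, was near the detection limit. Its probe (NM_133401, rn4 chromosome 4, 21795859 to 21795918) lies 103604 bases from that of Abcb1b and was well above background in 5 of 8 fipronil rats and in none of 7 vehicle rats, too few arrays for the test. Signals had a lowest, median and highest value of -5.91, -3.31 and -2.67 in fipronil rats and of -6.01, -5.13 and -3.94 in vehicle rats. In fipronil rats 6 of 8 lay above the highest vehicle rat, while the lowest fipronil rat lay near the bottom of the vehicle range. The means were -3.64 ± 1.08 with fipronil (SD, n = 8) and -5.11 ± 0.71 with vehicle (SD, n = 7). Because no vehicle rat was above background, the difference of the means has only a bound. For it the vehicle level was the lowest signal well above background on each array, or the probe's own signal if higher. The fipronil mean, in which rats not above background kept their own signals, was 1.11-fold above that level. This bound carries no interval, so a rise beyond the spread between rats is not shown. Without that floor, the log2 difference of the means was 1.47, and slides 1 to 4 gave 2.07, -0.13, 0.93 and 2.70. With the detection filter relaxed to 3 arrays, the limma adjusted p of Abcb1a was 0.129. Probe sequences were not used here, and the 2 genes are close paralogs, so signal from one on the probe of the other was not tested.

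Genes around Abcb1b were looked at after its value was known. Within 1000 kb of its probe on rn4 chromosome 4, 8 tested probes named 6 genes other than efflux pumps: Dmtf1, Rundc3b, Crot, Grm3, Dbf4 and Steap4. Their log2 differences ran from -0.28 to 0.30 and none passed the limma test. At an unadjusted p under 0.05 there were 2 of 8, against 17.2% of all probes tested. On its other side Abcb4, whose probe starts 101084 bases away, differed by 0.06.

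Abcb4 and Abcb11 make the lipid and bile salt fractions of bile, and neither passed the test. Abcb4 moves phosphatidylcholine to the outer leaflet of the canalicular membrane. Its signals (NM_012690, rn4 chromosome 4, 22000547 to 22003326) had a lowest, median and highest value of 2.36, 2.61 and 3.04 in fipronil rats and 2.13, 2.63 and 3.11 in vehicle rats. The fipronil range lay wholly inside the vehicle range, and the log2 difference was 0.06 ± 0.13 (SE, 95% interval -0.22 to 0.34, adjusted p = 0.876). Abcb11 is the bile salt export pump, and its brighter probe (NM_031760, chromosome 3_random of rn4, 691617 to 691676) read 4.54, 4.84 and 5.17 in fipronil rats at the lowest, median and highest. The same values in vehicle rats were 4.31, 4.75 and 4.97. The groups overlapped, 2 fipronil rats exceeded all vehicle rats, and the log2 difference was 0.21 ± 0.12 (SE, 95% interval -0.04 to 0.46, adjusted p = 0.386). It was 0.05 with array brightness as a covariate, 0.12 without slide 1 and 0.33 without slide 3, and slides 1 to 4 gave 0.48, 0.28, -0.31 and 0.21. Another probe named Abcb11 (XM_579531, 624196 to 624255) was not well above background on any of the 15 arrays. The change of Abcb11 did not differ from that of Abcb4 beyond the spread, at 0.15 per rat (95% interval -0.14 to 0.44, exact permutation p = 0.276, adjusted p = 0.345 over 5 planned pairs).

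Abcc2 (Mrp2) exports glucuronide, sulfate and glutathione conjugates, bilirubin glucuronides among them, into bile. Its probe (NM_012833, chromosome 1_random of rn4, 3595866 to 3595925) was printed 10 times on each array, and these spots had a median within-array SD of 0.03 on the log2 scale. Signals had a lowest, median and highest value of 7.29, 7.53 and 7.66 in fipronil rats and of 6.74, 7.15 and 7.36 in vehicle rats. All but 1 fipronil rat exceeded the highest vehicle rat. The means were 7.52 ± 0.13 with fipronil (SD, n = 8) and 7.09 ± 0.27 with vehicle (SD, n = 7), a log2 difference of 0.43 ± 0.11 (SE) or 1.35-fold (95% interval 1.15 to 1.58), with an adjusted p of 0.0763. The log2 difference was positive on each slide, at 0.62, 0.54, 0.21 and 0.24 on slides 1 to 4. Scaling to the array median gave 0.50 with an adjusted p of 0.0418, and a trended robust prior gave an adjusted p of 0.0499. These were the only 2 of 33 alternatives in which Abcc2 was called, so the call depended on these settings. Leaving out slide 1 gave 0.36 (adjusted p = 0.377) and leaving out slide 4 gave 0.50 (adjusted p = 0.274). When the model included brightness, Abcc2 gave 0.51 (adjusted p = 0.219). No spot of the probe was saturated.

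Abcg2 (Bcrp) exports sulfate conjugates, porphyrins and urate, and its signal was lower with fipronil without passing the test. The probe (NM_181381, rn4 chromosome 4, 87558205 to 87559781) had a lowest, median and highest signal of 0.78, 1.32 and 1.80 in fipronil rats and of 1.24, 1.64 and 2.95 in vehicle rats. All 8 fipronil rats lay below the vehicle mean and 4 lay below the lowest vehicle rat. The means were 1.29 ± 0.37 with fipronil (SD, n = 8) and 1.84 ± 0.58 with vehicle (SD, n = 7), a log2 difference of -0.55 ± 0.23 (SE, 95% interval -1.03 to -0.07, adjusted p = 0.233). The highest vehicle value came from replicate 5, the only vehicle array on slide 3, and without that rat the difference was -0.36. Slides 1 to 4 gave 0.01, -0.42, -1.78 and -0.56.

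**Figure D2:**
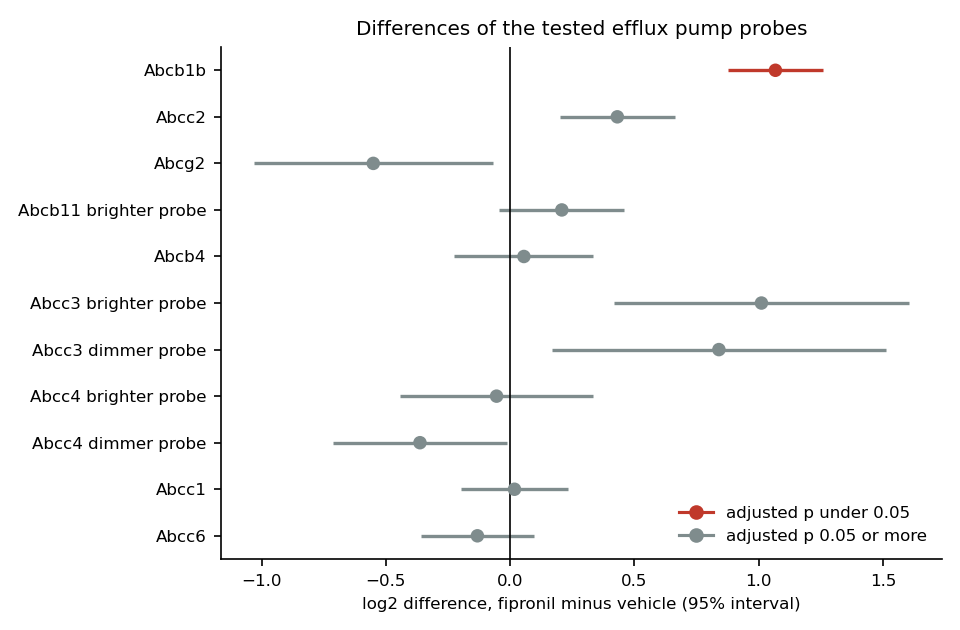
Log2 difference, fipronil minus vehicle, of the 11 tested efflux pump probes, with points for the limma estimate and lines for the 95% interval, coloured by whether the adjusted p was under 0.05. Abcb1b is the only probe past the threshold, and the Abcc3 probes lie at 1.01 and 0.84 with wide intervals.

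Abcc3 (Mrp3) carries glucuronides and bile salts across the basolateral membrane into blood, and its 2 probes read higher in many fipronil rats with a wide spread. The brighter probe (NM_080581, rn4 chromosome 10, 82986913 to 82986972) had a lowest, median and highest signal of -1.70, -0.84 and -0.07 in fipronil rats and of -2.55, -2.07 and -0.77 in vehicle rats. Of the 8 fipronil rats 4 exceeded all vehicle rats. The means were -0.83 ± 0.60 with fipronil (SD, n = 8) and -1.84 ± 0.58 with vehicle (SD, n = 7), a log2 difference of 1.01 ± 0.28 (SE) or 2.02-fold (95% interval 1.33 to 3.04), with an adjusted p of 0.0993. Its spread between rats within a group was thus larger than that of Abcb1b, whose log2 difference was of similar size. Normexp with quantile normalization gave 0.51 and the values tabulated by the authors gave 0.61 (adjusted p = 0.116 and 0.123).

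The dimmer Abcc3 probe starts 234 bases away on chromosome 10 (82987147 to 82987206). It had a lowest, median and highest signal of -3.93, -2.54 and -1.87 in fipronil rats and of -4.16, -3.70 and -2.71 in vehicle rats. It was well above background in 6 of 8 fipronil rats and 2 of 7 vehicle rats. The dimmer probe thus entered the test through the group where it is high, and its difference is taken largely against background. That log2 difference was 0.84 ± 0.32 (SE, adjusted p = 0.200), against 0.22 with normexp and 0.27 with the values tabulated by the authors. The same 2 fipronil rats, replicates 5 and 6 on slide 3, were lowest on both probes. On slide 3 the difference was -0.20 for the brighter probe and -0.14 for the dimmer, while slides 1, 2 and 4 gave 1.49, 0.86 and 1.70 for the brighter and 1.08, 1.28 and 1.20 for the dimmer. Without slide 3 the brighter probe passed at 1.35 (adjusted p = 0.0364), and without vehicle replicate 3 it passed at 1.19 (adjusted p = 0.0366). These were the only 2 of 33 alternatives in which the brighter probe passed. Leaving out slide 1 gave 0.83 (adjusted p = 0.420) and leaving out slide 4 gave 0.75 (adjusted p = 0.541). When the model included brightness, the brighter probe gave 0.79 (adjusted p = 0.539). The difference in change between the 2 probes was 0.17 (95% interval -0.29 to 0.63, exact permutation p = 0.441). It passed with normexp (0.28, adjusted exact permutation p = 0.0270) and with the values tabulated by the authors (0.34, adjusted exact permutation p = 0.0193), and most vehicle values of the dimmer probe are at background.

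**Figure D3:**
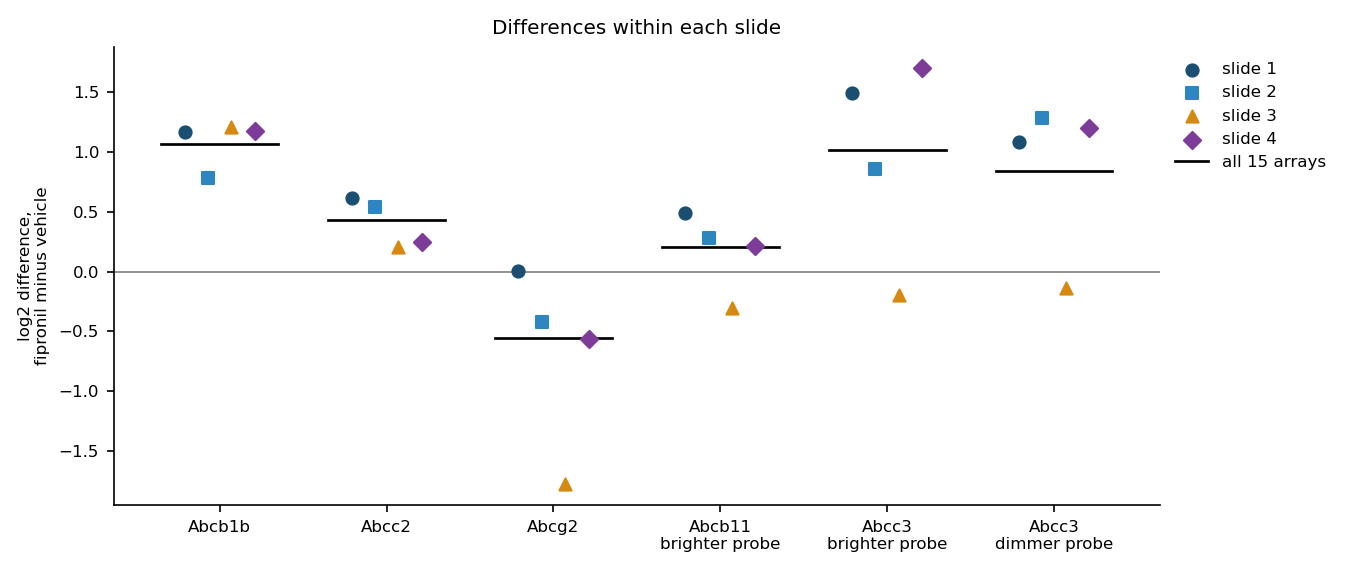
Log2 difference, fipronil minus vehicle, within each of the 4 slides for 6 probes, with a black line at the estimate over all 15 arrays; slide 3 holds 2 fipronil rats and 1 vehicle rat, and each other slide holds 2 rats of each group. Abcb1b and Abcc2 are positive on all 4 slides, and both Abcc3 probes are below 0 on slide 3.

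Abcc4 (Mrp4) exports bile salts, sulfated steroids and cyclic nucleotides to blood. Its brighter probe (NM_133411, rn4 chromosome 15, 103401099 to 103401158) had a lowest, median and highest signal of -2.76, -1.98 and -1.56 in fipronil rats and of -2.29, -2.09 and -1.64 in vehicle rats. The vehicle range lay inside the fipronil range, and the log2 difference was -0.05 ± 0.18 (SE, 95% interval -0.44 to 0.33, adjusted p = 0.919). The dimmer probe starts 127717 bases away (103528816 to 103528875) and read -3.41, -2.79 and -2.29 in fipronil rats against -2.90, -2.35 and -2.16 in vehicle rats. Its groups overlapped, with a log2 difference of -0.36 ± 0.17 (SE, adjusted p = 0.277), against -0.07 with normexp and -0.11 with the values tabulated by the authors. Slides 1 to 4 gave -0.38, -0.01, -0.79 and -0.42. The change of Abcc3 exceeded that of Abcc4 by 1.07 per rat (95% interval 0.30 to 1.83), with an exact permutation p of 0.0109 and an adjusted p of 0.0544 over 5 planned pairs, which missed the threshold. All 8 fipronil rats lay above the vehicle mean of this difference. The difference in change was 0.58 for Abcc3 over Abcc2 (95% interval -0.16 to 1.32, exact permutation p = 0.117, adjusted p = 0.294; 0.04 with normexp), and 0.22 for Abcc2 over Abcb11 (95% interval -0.11 to 0.56, exact permutation p = 0.179, adjusted p = 0.298). The planned pair of Abcb1b and Abcb1a was not computed because Abcb1a was mostly below background.

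Abcc1 and Abcc6 complete the set. Abcc1 (Mrp1), an exporter of glutathione conjugates found on the basolateral membrane of many cell types, read -0.86, -0.63 and -0.38 in fipronil rats at the lowest, median and highest (NM_022281, rn4 chromosome 10, 452577 to 452636). In vehicle rats the same values were -0.98, -0.63 and -0.32. The fipronil range lay inside the vehicle range, and the log2 difference was 0.02 ± 0.10 (SE, 95% interval -0.20 to 0.23, adjusted p = 0.955). Abcc6, which mediates ATP release from hepatocytes and is mutated in human pseudoxanthoma elasticum, read 4.95, 5.17 and 5.55 in fipronil rats and 5.09, 5.32 and 5.59 in vehicle rats (NM_031013, rn4 chromosome 1, 96448802 to 96448861). Of the fipronil rats 3 lay below every vehicle rat, and the log2 difference was -0.13 ± 0.11 (SE, 95% interval -0.36 to 0.10, adjusted p = 0.571).

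Other genes that export from hepatocytes were measured for 10 of 11 listed, and 2 were called higher with fipronil. These were Abcg5 and Abcg8, whose products form the sterol exporter of the canalicular membrane, with log2 differences of 3.64 ± 0.32 and 3.73 ± 0.34 (SE, adjusted p = 6.58e-06 and 9.13e-06). Abcg8 was well above background in all 8 fipronil rats but in 2 of 7 vehicle rats, so its difference is taken partly against background and it entered the test through the group where it is high. When only probes above background on all 15 arrays were kept, 1 of 6 measured genes was called. The median of the list was 0.02. The genes for pump regulators gave no call: 0 of 14 measured passed the limma test. At an unadjusted p under 0.05, 2 were higher and 1 lower, against 17.2% of all probes in either direction. The smallest p belonged to Esr1, an oestrogen receptor (-0.59 ± 0.19, SE, limma adjusted p = 0.143). PXR (Nr1i2) differed by -0.03 and CAR (Nr1i3) by 0.01. Of 9 measured genes that anchor or traffic canalicular pumps, 0 passed. Beside the same 17.2% of all probes, 1 was higher at an unadjusted p under 0.05. That was the recycling endosome protein Rab11a (0.18 ± 0.08, SE, adjusted p = 0.255, brightest probe). Its 2 other tested probes gave 0.25 and 0.47 (adjusted p = 0.104 and 0.117).

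Among enzymes that make the conjugates these pumps carry, 6 were called higher with fipronil. Of 17 measured none was called lower, and the median log2 difference was 0.37. At an unadjusted p under 0.05, 12 were higher and 3 lower, against 17.2% of all probes in either direction. The 3 lower were all read from saturated probes. The 6 called were the glucuronosyltransferases Ugt2a3 (2.61 ± 0.21, SE), Ugt1a1 (2.25 ± 0.12), Ugt1a2 (1.62 ± 0.10), Ugt2b1 (1.41 ± 0.15) and Ugt2b35 (0.37 ± 0.08), and the sulfotransferase Sult1b1 (0.77 ± 0.15). Over 33 alternatives the count called ran from 4 to 8. Among 11 genes of bile acid synthesis and uptake, 3 were called higher: the uptake carriers Slco1a4 (2.53 ± 0.12, SE) and Slco1a1 (0.96 ± 0.08), and the epoxide hydrolase Ephx1 (1.10 ± 0.20). Of 10 measured P450 targets of CAR and PXR, 3 were called higher, Cyp3a23-3a1 (4.08 ± 0.23, SE), Cyp3a18 (1.97 ± 0.15) and Cyp3a62 (1.01 ± 0.21). The count called ran from 2 to 6, the 6 with median scaling. Cyp3a9 (1.09 ± 0.25, SE) and Cyp3a2 (2.87 ± 0.66) had limma adjusted p of 0.0502 and 0.0541. Cyp3a2 was well above background in 7 of 8 fipronil rats but 1 of 7 vehicle rats. Cyp2b1 and Cyp2b2 were listed but no probe was named for them, and 3 of the 10 were saturated on at least 3 arrays. Lists of other liver cells held 1 call in all, Rgs5 of the stellate cell list (1.01 ± 0.17, SE, adjusted p = 0.00882), and their other measured genes ran from -0.66 to 0.55. The Rgs5 call was lost without slide 1, without slide 4 and with array brightness as a covariate.

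**Figure D4:**
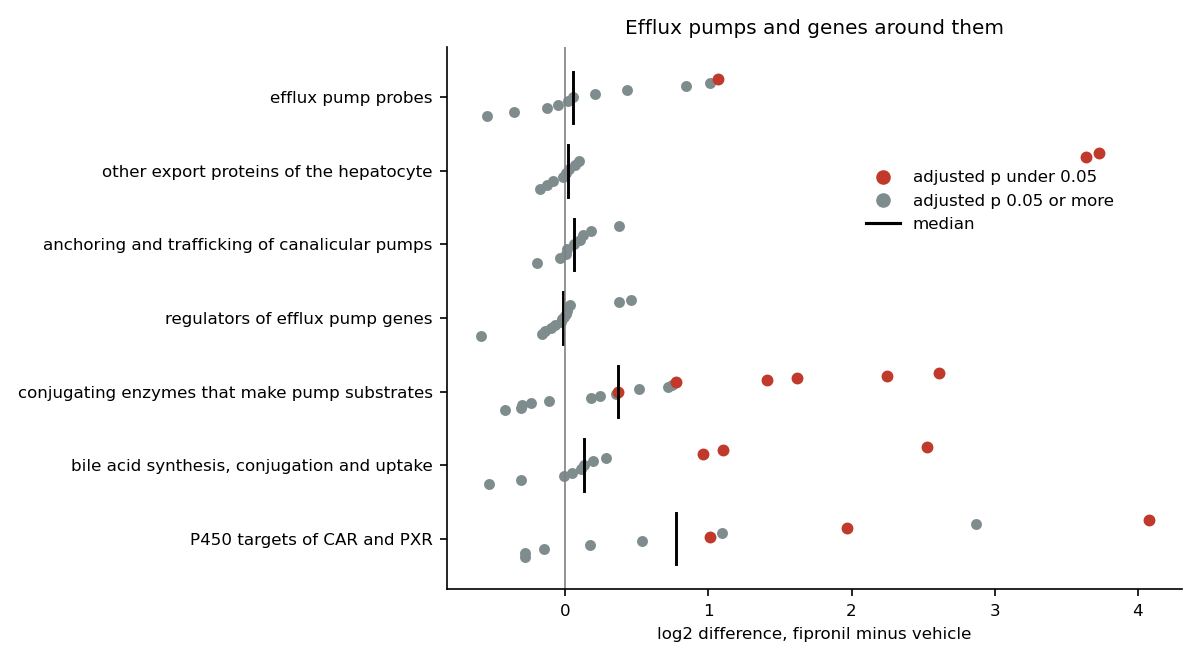
Log2 difference, fipronil minus vehicle, of the 11 efflux pump probes and of the measured genes of 6 lists, 1 point per probe or gene, red where the adjusted p was under 0.05, with a black line at the median of each row. The called genes of every list lie above 0, and the regulator and anchoring rows hold none.

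The genes whose signals over the 15 arrays were most like those of Abcb1b, among 10760 named genes, were Mdm2 (Pearson r = 0.96), Ces2a (0.95) and Ugt1a2 (0.95). All 3 were higher with fipronil, at log2 differences of 0.63, 2.57 and 1.62 (adjusted p = 0.000526, 9.33e-08 and 9.33e-08), so these correlations hold the group difference. For Abcc2 the closest were Fnbp1 (r = 0.87), Usp11 (0.82) and Ttc39a (0.81). For the brighter Abcc3 probe they were Siglec5 (0.92), Uros (0.88) and Panx2 (0.87). None of these 6 passed the limma test, with log2 differences of 0.40, 0.65, 0.83, 1.28, 0.23 and 0.86. These correlations were picked as the highest and carry no test.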

How the data were processed

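The deposited array files give spot intensity from Agilent Feature Extraction 9.5.3.1, which the headers describe as background subtracted and spatially detrended, with no step that brings arrays to one scale. Deposited 0 or 1 flags mark saturated, outlier and well-above-background spots. The authors' deposited series table holds log2 values for 22244 probes, and limma and Feature Extraction 9.5 are named in the submitters' processing notes. It was used as an alternative.

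Outlier spots were left out, spots of a probe averaged as log2 processed intensity, and the array's 75th percentile subtracted. Probes well above background on at least 7 of 15 arrays and missing on at most 3 were tested with limma 3.58.1 in R 4.3.3 (lmFit and eBayes, two-sided), adjusted by Benjamini-Hochberg, after the script was tested on simulated data. Groups came from the labels, which describe separate rats. Same-numbered rats correlated at -0.04 to 0.37 in their deviations from group means, with 3 of 7 pairs over 0.1. In 3 of 7 the best match was the rat of the same number. These values do not settle whether numbers pair the rats, and they were not taken as pairs. Pairs of probes were compared per rat by exact permutation tests.

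Probe coordinates are on rn4, per the file headers, and the exon under a probe was not analysed here. Symbols came from RefSeq (GRCr8), and the older name Abcb1, an alias of both P-glycoprotein genes, was settled by accession. Genes with several probes are represented in lists by the brightest. Every member and its probes were named, and from each list every gene that passed or the one with the smallest p. Members and lists were chosen with earlier results of these data known. The number of arrays limits precision.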

Additional observations from a re-analysis of the deposited data

How the results depend on the processing

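Abcb1b kept its direction and call under 33 alternatives, at 0.44 to 1.17 (log2). The number of efflux pump probes called higher was 1, and became 2 with median scaling, without slide 3 and with a trended robust prior; leaving out 1 rat gave 1 to 2, the 2 without vehicle replicate 3, and 0 probes called lower throughout. Called probes over the whole table numbered 191. They numbered 90 with no filter on dim probes, 318 with slide as a random block, 37 without slide 1, 45 without slide 4 and 42 with brightness as a covariate, and from 102 (without fipronil replicate 8) to 307 (without vehicle replicate 3) when 1 rat was left out. With the replicate number as a block 97 were called, Abcb1b the only efflux pump probe among them, although the numbers were not taken as pairs. Uncalled differences near 0 changed sign. Abcb4 gave -0.107 without slide 4, -0.12 with brightness as a covariate and -0.00452 with array weights, and from -0.0209 to 0.142 with 1 rat left out. Abcc1 gave -0.0369 without slide 1 and -0.00389 without slide 3, and from -0.0384 to 0.0710 with 1 rat left out. The brighter Abcc4 probe gave 0.0543 with normexp, 0.0106 with median scaling, 0.0202 with the values tabulated by the authors, 0.00526 without slide 1 and 0.0997 without slide 3, and from -0.126 to 0.0454 with 1 rat left out. The larger change of Abcc3 over Abcc4 passed in 3 of 23 alternatives: without slide 2, fipronil replicate 5 or vehicle replicate 3. The change of Abcc3 over Abcc2 passed in 1 of 23, without vehicle replicate 3, and ran from 0.0439 to 0.883, and that between the Abcc3 probes passed in 2. Calls among conjugating enzymes ran from 4 to 8, among P450 targets from 2 to 6, among bile acid genes from 2 to 3 and among other exporters from 1 to 2, with 0 lower in each. The causes were not tested. Abcb1a, the dimmer Abcb11 probe and the dimmer Abcc3 probe were near background, which limits what their signals show.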
